A study of Homo sapiens with 5 samples.

Results

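The genes of the T cell co-receptors CD4 and CD8 and of the lineage factor ThPOK were examined for chromatin peaks in MOLT-4, a human cell line established from a T cell acute lymphoblastic leukaemia. Members were the peaks that shared at least 1 bp with 3 windows of the hg19 genome, drawn around the genes by position. The CD4 window spanned 6.88 to 6.94 Mb on chromosome 12 (60 kb), the CD8 window, which holds CD8A and CD8B, 86.98 to 87.11 Mb on chromosome 2 (130 kb), and the ZBTB7B window, named for the gene that encodes ThPOK, 154.96 to 155.00 Mb on chromosome 1 (40 kb). They held 34 of 51392 peaks on chromosomes 1 to 22 and X: 29 of 36736 RUNX1 peaks, 2 of 13181 H3K4me3 peaks and 3 of 1475 SMA4 peaks.

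The peaks came from CUT&RUN, in which an antibody guides a nuclease to a chromatin protein or mark and the released fragments are sequenced. Each of the 3 antibodies was used on 1 library of cultured MOLT-4 cells, with no treatment or genotype that differs between libraries given in the labels. RUNX1 is a DNA-binding regulator of blood cell development, H3K4me3 is a histone modification typical of promoters, and the label SMA4 does not spell out its target, so the name is used as given. With 1 library per antibody no value has a replicate check, and the lists give intervals without height or read depth, so no test was made. Peaks of the IgG controls were not analysed here, so no count has a control value beside it.

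CD4 and CD8 are surface co-receptors that help the T cell receptor bind antigen on MHC class II and class I molecules. CD8 on most T cells pairs the chains encoded by CD8A and CD8B. Developing thymocytes pass through a stage with both co-receptors and then keep one of them. ThPOK directs cells to the CD4 lineage, and RUNX proteins, bound to DNA with their partner CBFB, act at silencers of the CD4 and ThPOK genes and at enhancers of the CD8 genes, as described mainly in mouse thymocytes. Expression was not measured here.

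In the RefSeq gene order of GRCh38.p14, CD4 stands between LAG3, which encodes an inhibitory receptor of T cells that binds MHC class II, and GPR162. CD8A stands between RMND5A and CD8B, and ZBTB7B between LENEP and DCST2. Genes were not mapped in hg19, so no peak was assigned to a promoter, intron or silencer, and a peak in a window may lie at a neighbouring gene.

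Sequences under the peaks were not used here, for want of an hg19 genome. Sequences from before RefSeq start sites of CD8A are shown instead, because all 3 lists had peaks in the window of this gene. They were searched for TGTGGT and TGCGGT, core motifs of RUNX proteins, on both strands. The first is the CD8A entry with a match, given in capitals (ACCGCA, which reads TGCGGT on the other strand, with its first base 158 bases before the start), and the second is the entry farthest upstream, without a match. Both are 250 bases, 5′ to 3′ on the minus strand of GRCh38.p14, at chr2:86791681-86791930 and chr2:86808397-86808646, positions that cannot be set against the hg19 peaks.
CD8A start with a match: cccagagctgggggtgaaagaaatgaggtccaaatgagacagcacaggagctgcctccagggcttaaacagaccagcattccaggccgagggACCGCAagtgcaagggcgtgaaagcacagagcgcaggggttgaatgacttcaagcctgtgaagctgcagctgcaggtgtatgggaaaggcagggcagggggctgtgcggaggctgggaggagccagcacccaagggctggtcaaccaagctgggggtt
CD8A start farthest upstream: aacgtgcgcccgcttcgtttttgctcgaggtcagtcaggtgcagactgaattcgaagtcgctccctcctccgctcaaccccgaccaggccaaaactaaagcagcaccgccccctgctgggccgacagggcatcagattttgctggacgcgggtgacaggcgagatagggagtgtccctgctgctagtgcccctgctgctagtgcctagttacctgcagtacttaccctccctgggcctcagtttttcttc

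Of 4 member genes, CD8A and ZBTB7B are in the promoter table. Among the 300 bases around each start, 1 of 4 CD8A entries and 0 of 2 ZBTB7B entries held a motif, against 19.6% of all 35116 entries (6879). Of 14 other regulators of T cell lineage, 11 are in the table, and 6 of these (RUNX3, GATA3, TCF7, LEF1, IKZF1 and SATB1) had at least 1 entry with a match, against 22.9% of all genes in the table, where genes with several starts have more chances of a match. A match is a run of letters and not a bound site.

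RUNX1 peaks were present in all 3 windows, whereas H3K4me3 and SMA4 peaks lay in the CD8 window alone. RUNX1 covered 11.2% of the CD8 window, 9.92% of the ZBTB7B window and 7.31% of the CD4 window, against 0.962% of the span from the start of each chromosome to its last peak. As numbers of peaks, these were 17, 7 and 5, or 13.1, 17.5 and 8.33 per 100 kb, against 1.21 per 100 kb of that span. By number per length the ZBTB7B window was thus the densest, and by covered bases the CD8 window. The order by covered bases turned round with the windows narrowed by 10 kb on each side, to 16.4% at ZBTB7B and 13.3% at CD8.

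**Figure D1:**
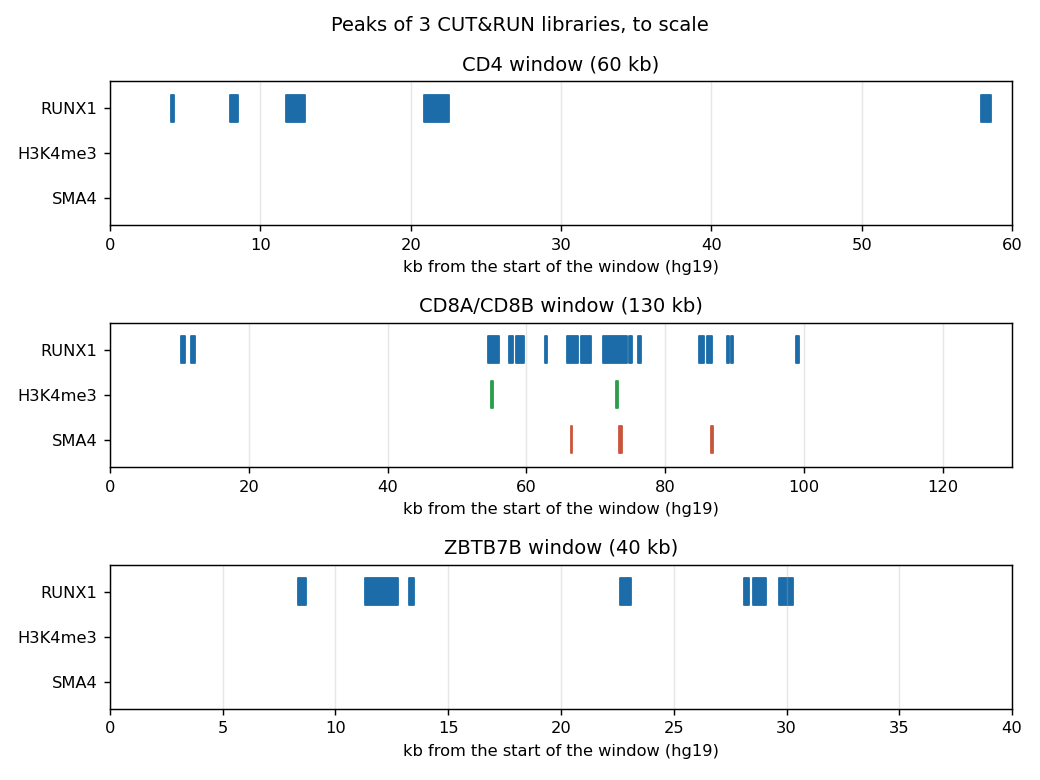
Peaks of the RUNX1, H3K4me3 and SMA4 libraries (bars, to scale) in the CD4, CD8A/CD8B and ZBTB7B windows, with the distance in kb from the start of each window on the x axis. RUNX1 peaks number 5, 17 and 7, and the 2 H3K4me3 and 3 SMA4 peaks all lie in the CD8A/CD8B window.

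To place these counts, the genome was cut into tiles of each window's width, side by side. Of 23318 tiles of 130 kb, 74 held at least 17 RUNX1 peaks (0.317%). Of 75800 tiles of 40 kb, 368 held at least 7 (0.485%), and of 50529 tiles of 60 kb, 1618 held at least 5 (3.2%). The median tile of each width held 0 RUNX1 peaks. These tiles include sequence without genes, and the windows were drawn around T cell genes. The windows' own sequence was not left out of the tiles, so their peaks are also counted there. With tiles limited to those with a peak of any list, the shares were 0.653%, 1.82% and 9.47%. By bases in RUNX1 peaks, 0.390% of tiles reached the CD8 window, 1.501% the ZBTB7B window and 2.32% the CD4 window. By number of peaks the CD8 and ZBTB7B windows were thus reached by fewer tiles than the CD4 window, while by bases the ZBTB7B window stood nearer to CD4.

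**Figure D2:**
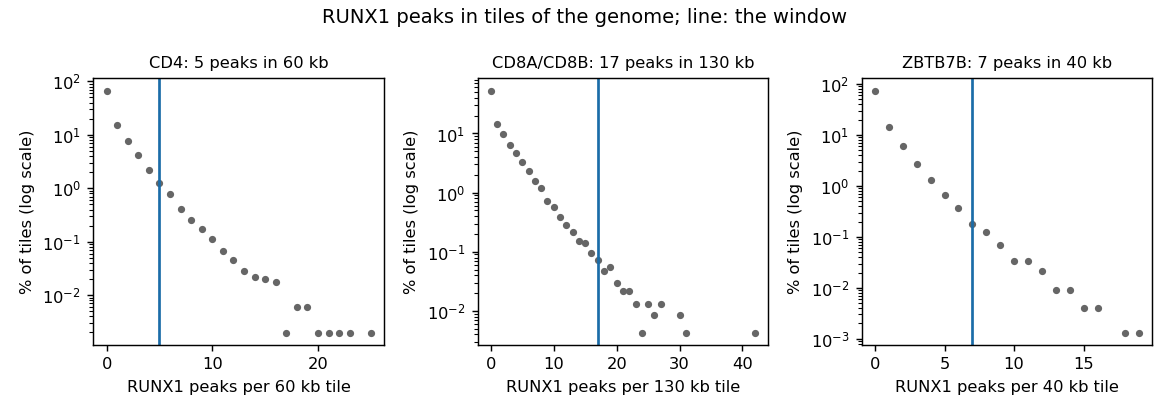
Share of genome tiles (y axis, percent, log scale) with each number of RUNX1 peaks (x axis), for tiles as wide as the CD4, CD8A/CD8B and ZBTB7B windows. The vertical line marks the window's own count of 5, 17 or 7 peaks, reached or passed by 3.2%, 0.317% and 0.485% of tiles.

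The CD4 gene encodes the co-receptor of helper T cells. In its window, 5 RUNX1 peaks were found, at chromosome 12 from 6884047 to 6884286 (240 bp), 6887966 to 6888528 (563 bp), 6891687 to 6892950 (1264 bp), 6900883 to 6902546 (1664 bp) and 6937924 to 6938577 (654 bp). The first 4 lay within 18.5 kb, and the widest of them, of 1664 bp, was wider than 92.6% of the RUNX1 list. After it, 35377 bp followed without a RUNX1 peak up to the fifth, which ended 1.42 kb before the border of the window. The first started 4.05 kb after the other border.

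The counts therefore depend on where the borders stand: with the CD4 window narrowed by 10 kb on each side, 2 RUNX1 peaks remained in it. The next RUNX1 peak outside was narrow, 261 bp wide and 4.95 kb beyond the end. The nearest H3K4me3 peaks stood 17.0 kb before and 19.7 kb after the window. The nearest SMA4 peaks were 4231 and 2954 kb away. The SMA4 list is short, with 0.0486 peaks per 100 kb of the span, and how often such distances occur was not counted.

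In tiles of 60 kb, 83.2% held no H3K4me3 peak and 97.5% no SMA4 peak. Among tiles of this width with a peak of any list, 50.2% held no H3K4me3 peak. Among the 1618 tiles with at least 5 RUNX1 peaks, 502 (31.0%) held no H3K4me3 peak and 420 (26.0%) neither H3K4me3 nor SMA4. A window with 5 RUNX1 peaks and no mark was thus in the minority of tiles with as many RUNX1 peaks, but not rare among them.

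The CD8 genes encode the co-receptor chains of cytotoxic T cells, and their window held the longest row of RUNX1 peaks of the 3. A pair of peaks of 625 and 596 bp, the first from 86990217, stood apart near the start of the window, followed by 42201 bp without a RUNX1 peak. The other 15 peaks formed a run from 87034438 to 87079253, a span of 44.8 kb with 13359 bp in peaks, when neighbours at most 10 kb apart were joined. Single peaks count as runs here: of 21979 runs in the RUNX1 list, 7365 held at least 2 peaks. At least 15 peaks were held by 37 (0.168% of all runs), and 42 had at least as many bases in peaks. When joined at 5 kb, the largest run of the window held 9 peaks, from 87034438 to 87056555. When joined at 20 kb it held the same 15 peaks, and 94 of 17524 runs (0.536%) then held as many. At that distance the fifth CD4 peak joined a run of 20 peaks from 6937924 to 7080410, mostly outside the CD4 window and longer than the CD8 run. The ZBTB7B peaks were then part of a run of 14 peaks from 154908810 to 154990286, which began outside their window. It spanned 81.5 kb, also longer than the CD8 run, and 121 of 17524 runs (0.690%) held as many peaks. The joining distance was chosen after the peaks had been seen. No RUNX1 peak followed the CD8 run for 223395 bp.

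**Figure D3:**
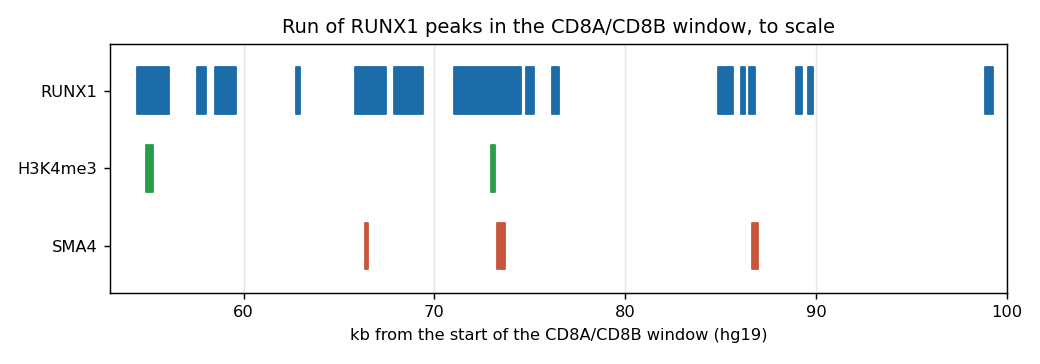
The run of 15 RUNX1 peaks in the CD8A/CD8B window with the H3K4me3 and SMA4 peaks (bars, to scale), by distance in kb from the start of the window. All 5 peaks of the other lists overlap RUNX1 peaks, and the widest RUNX1 peak holds 1 peak of each.

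The widest RUNX1 peak of the CD8 window spanned 3538 bp on chromosome 2 from 87051004 to 87054541. It was 5.49 times the list's median width of 645 bp, and 138 of 36736 RUNX1 peaks were at least as wide. It held an H3K4me3 peak of 179 bp at 87052992 to 87053170 and an SMA4 peak of 423 bp at 87053297 to 87053719. These did not touch: 126 bp lay between them. The H3K4me3 peak was centred 308.5 bp and the SMA4 peak 735.5 bp after the middle of the RUNX1 peak, so both were in its later part. In the whole list 0.917% of RUNX1 peaks overlapped both H3K4me3 and SMA4, and of the 138 at least as wide as this one, 19 did (13.8%). Overlap with both was thus more frequent among RUNX1 peaks this wide than in the whole list, and the reason was not tested.

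The second widest RUNX1 peak of this window, 1681 bp from 87034438 to 87036118, opened the run and held the other H3K4me3 peak. That H3K4me3 peak spanned 370 bp from 87034890 to 87035259 and lay wholly inside the RUNX1 peak. Against the H3K4me3 list, with a median of 938 bp, both peaks of the mark in the CD8 window were narrow. One was wider than 26.0% of that list, and the other, of 179 bp, was at the minimum width of the list, shared by 982 of its peaks (7.45%). Without peaks of minimum width, 1 H3K4me3 peak remained.

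The third widest, of 1619 bp from 87045855 to 87047473, held an SMA4 peak of 151 bp at 87046369 to 87046519, wider than 8.07% of the SMA4 list. The fourth followed 390 bp later, with 1527 bp from 87047864 to 87049390, and overlapped no peak of the other lists. The fifth, of 1082 bp from 87038526 to 87039607, and the sixth, of 790 bp from 87064876 to 87065665, also overlapped none. These 6 peaks held 70.2% of the 14580 bp of RUNX1 peaks in the window. A narrow RUNX1 peak, 338 bp from 87066486 to 87066823, met the third SMA4 peak, 346 bp from 87066622 to 87066967. Of this SMA4 peak, 202 bp (58.4%) lay in RUNX1 and the rest ran past its end. The remaining 10 RUNX1 peaks were 221 to 625 bp wide and overlapped neither list.

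For SMA4, 3 peaks in 130 kb is an infrequent count: 54 of 23318 tiles held as many (0.232%), or 0.477% of tiles with a peak of any list. The 3 SMA4 peaks lay 6777 and 12902 bp apart, all inside the RUNX1 run. The next SMA4 peaks stood 32.4 kb before and 91.6 kb after the window. Of the 74 tiles with at least 17 RUNX1 peaks, 8 (10.8%) held at least 3 SMA4 peaks and 49 (66.2%) held none. The CD8 window, whose own sequence is part of the tiling, was therefore in the minority even among such tiles.

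At least 2 H3K4me3 peaks were found in 14.1% of 130 kb tiles, or 29.1% of those with a peak of any list. The 2 peaks of the CD8 window covered 549 bp, and 23.8% of all 130 kb tiles had at least as many bases in H3K4me3 peaks. Among the 74 tiles with at least 17 RUNX1 peaks, the median was 3 H3K4me3 peaks and 3110 bp, and 16 tiles (21.6%) had 549 bp or less. RUNX1 peaks at CD8 thus came with less H3K4me3 than in the median tile with at least as many RUNX1 peaks. Of these 74 tiles, 17 held exactly 17 RUNX1 peaks and the rest held more, so the set is not matched in RUNX1 number.

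**Figure D4:**
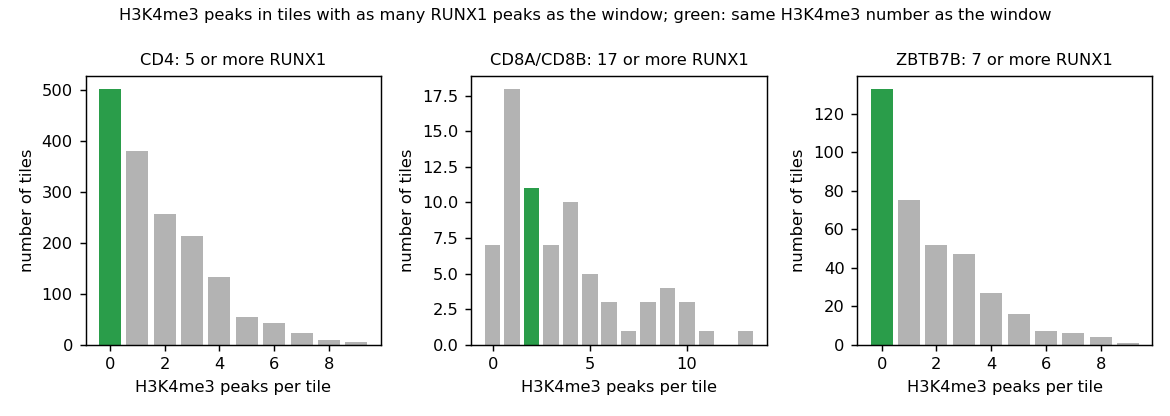
Number of genome tiles (y axis) by their number of H3K4me3 peaks (x axis), among tiles with at least as many RUNX1 peaks as the CD4 (5), CD8A/CD8B (17) or ZBTB7B (7) window. The green bar has the window's own number of H3K4me3 peaks: 0, 2 and 0.

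ZBTB7B encodes ThPOK, a zinc finger repressor of the CD8 programme. Its window held 7 RUNX1 peaks, in groups of 3, 1 and 3 when neighbours at most 5 kb apart were joined. The first group lay at chromosome 1 from 154968318 to 154968713 (396 bp), 154971311 to 154972775 (1465 bp) and 154973263 to 154973483 (221 bp). A single peak of 476 bp stood at 154982614 to 154983089, after 9130 bp without a peak. The last group lay 5039 bp further, at 154988129 to 154988349 (221 bp), 154988533 to 154989110 (578 bp) and 154989676 to 154990286 (611 bp). The peak of 1465 bp was wider than 89.3% of the RUNX1 list, while the other 6 were narrower than its median. At the 5 kb distance the CD8 peaks were split as well, into runs of 2, 9, 5 and 1. Joined at 10 kb, as for the CD8 run of 15, all 7 ZBTB7B peaks formed 1 run, from 154968318 to 154990286. At least 7 peaks were held by 333 of 21979 runs (1.52%).

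Neither H3K4me3 nor SMA4 had a peak in the ZBTB7B window. The nearest H3K4me3 peak, 1066 bp from 154955371 to 154956436, ended 3.56 kb before the border and overlapped a RUNX1 peak of 737 bp from 154955341. Widening the window by 10 kb brought both in, so that 1 H3K4me3 peak and 1.78% coverage by the mark were then counted. Which gene this peak belongs to was not determined. On the other side the nearest H3K4me3 peak was 36.2 kb away, and SMA4 peaks stood 50.3 kb before and 607.2 kb after the window. In tiles of 40 kb, 87.7% held no H3K4me3 peak and 98.3% no SMA4 peak. Of those with a peak of any list, 54.0% held no H3K4me3 peak. Of the 368 tiles with at least 7 RUNX1 peaks, 133 (36.1%) held no H3K4me3 peak and 104 (28.3%) neither.

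Across the 3 windows, 25 of 29 RUNX1 peaks (86.2%) overlapped neither H3K4me3 nor SMA4, against 66.1% of the whole list. Shares of the list are not matched for width here, and 10 of the 29 were wider than the list's median, against 49.9% of the list. Among RUNX1 peaks of the list at least 1465 bp wide, 68.2% overlapped H3K4me3. Of the window peaks this wide, those of 1681 and 3538 bp overlapped H3K4me3, and those of 1664, 1619, 1527 and 1465 bp did not. Whether width bears on the share in the windows was not tested. H3K4me3 was met by 2 of 29 (6.90%, exact 95% binomial interval 0.846 to 22.8%), against 32.2% of the list. The interval lies under the list's share, but neighbouring peaks are not independent and the interval covers counting error alone. SMA4 was met by 3 of 29 (10.3%, interval 2.19 to 27.4%), against 2.56% of the list, a share that this interval holds. All 3 were at CD8 (3 of 17, 17.6%, interval 3.80 to 43.4%), with 0 of 5 at CD4 and 0 of 7 at ZBTB7B. The CD8 interval lies above the list's 2.56%, but it too takes neighbouring peaks of 1 library as independent. By window, overlap with H3K4me3 was 0 of 5 at CD4 (interval up to 52.2%), 2 of 17 at CD8 (11.8%, 1.46 to 36.4%) and 0 of 7 at ZBTB7B (up to 41.0%), and all 3 of these wide intervals hold the list's share.

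In the other direction, 2 of 2 H3K4me3 peaks overlapped RUNX1, against 88.1% of the H3K4me3 list, and 3 of 3 SMA4 peaks, against 65.9% of the SMA4 list. These shares rest on 2 and 3 peaks and are read no further. No SMA4 peak of the windows overlapped H3K4me3, against 21.8% of the SMA4 list and, seen from the mark, 2.39% of the H3K4me3 list. The SMA4 library also differs from the others in batch and peak-calling pipeline, per the file headers, and these cannot be told apart from the antibody.

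RUNX1 peaks in the windows were not wide as a group. Their median was 654 bp at CD4, 470 bp at CD8 and 476 bp at ZBTB7B, against 645 bp in the list, whose quartiles were 380 and 1024 bp. Wider than the list's median were 3 of 5, 6 of 17 and 1 of 7, against 49.9% of the list. Above 1503 bp, a width passed by 10% of the list, were 5 of 29 peaks, 1 at CD4 and 4 at CD8. At the minimum width of 221 bp were 3 of 29, 1 at CD8 and 2 at ZBTB7B, against 4.73%. The CD8 window thus paired a few wide peaks with many narrow ones.

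**Figure D5:**
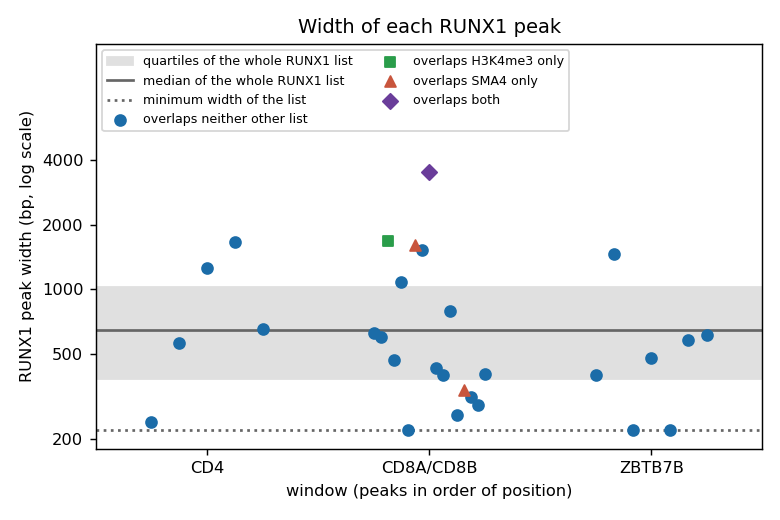
Width in bp (log scale) of each of the 29 RUNX1 peaks by window, in order of position, with the quartiles, median and minimum of the whole RUNX1 list. Symbols mark peaks that overlap H3K4me3, SMA4, both or neither; the peak of 3538 bp in the CD8A/CD8B window overlaps both.

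The median gap between neighbouring RUNX1 peaks within a window was 5806 bp at CD4, 1182 bp at CD8 and 1581 bp at ZBTB7B. The number of peaks and the width of a window limit these gaps, so they are no trait beyond the counts. Gaps under 1 kb made up 8 of 16 at CD8, 3 of 6 at ZBTB7B and 0 of 4 at CD4, against 16.4% of the list. A peak caller can split a broad signal into several peaks or join close ones, and with intervals alone the number of separate sites could not be counted.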

How the data were processed

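CUT&RUN libraries of MOLT-4 cells for H3K4me3, RUNX1 and SMA4 were analysed, 1 each. Peak lists of the 2 IgG controls were not used here. The authors deposited each list as 4 columns (chromosome, start, end, name), with no other value. Per the file headers, H3K4me3 and RUNX1 peaks came from MACS2 (folder of batch 2) and SMA4 peaks from cutruntools at a q threshold of 0.01 (folder of batch 3). Tools named in the submitters' processing notes are MACS2 and SEACR, with hg19 as build. No aligner, control or threshold of the first 2 lists is stated (not given in the sources used here). In all, the lists held 13199, 36777 and 1479 peaks, of which those on chromosomes 1 to 22 and X were used.

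Windows were taken in hg19 and coordinates written 1-based. Peaks overlapped when they shared at least 1 bp. Tiles of each window's width ran from the first base of a chromosome to its last peak. Intervals are exact 95% binomial intervals. Every H3K4me3 and SMA4 peak was named, and every RUNX1 peak where a window held 12 or fewer, otherwise the 6 widest and those overlapping another list. Promoters and gene order came from RefSeq (GRCh38.p14). Counting was checked on simulated intervals. Members and gene lists were chosen with earlier results of these data known. Python 3.11.15, pandas 2.3.3, NumPy 2.4.6 and SciPy 1.17.1 were used.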

Additional observations from a re-analysis of the deposited data

How the results depend on the processing

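Of 125 values recomputed for 34 results on peaks, 112 stayed within 1.5 times the reported value or, for shares, within its interval. Narrowing the windows by 10 kb on each side left 2 RUNX1 peaks at CD4 and raised RUNX1 coverage of the ZBTB7B window to 16.4%, above the 13.3% of the CD8 window, which turned their order round. Widening them brought 1 H3K4me3 peak and 1.78% coverage by the mark into the ZBTB7B window. Without peaks at minimum width 1 H3K4me3 peak was left at CD8. With tiles limited to those with a peak of any list, tiles without H3K4me3 fell to 50.2% (60 kb) and 54.0% (40 kb), those with as many RUNX1 peaks rose to 9.47% (CD4), 0.653% (CD8) and 1.82% (ZBTB7B), and those with as many H3K4me3 or SMA4 peaks as CD8 to 29.1% and 0.477%. These shifts follow from fewer tiles, narrower or wider windows and fewer peaks. Joining RUNX1 peaks at 5 kb, an alternative added after the data were seen, gave a run of 9 peaks at CD8. Joining at 20 kb gave 15 there, a number that 0.536% of runs then reached. With TGTGGT as the only motif, 0 promoter entries of the member genes matched in place of 1. Merging peaks less than 100 bp apart changed no count, as RUNX1 peaks lie at least 101 bp apart. The lists give no read depth, so a window without a peak shows only that none passed the caller's threshold. No paired analysis was possible because each antibody has 1 library.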
